A study of Mus musculus with 26 samples.

Results

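The report concerns 6 genes of 3 imprinted domains on mouse chromosome 2: *Gnas* and its antisense partner *Nespas*, *Nnat* and its host gene *Blcap*, and *Mcts2* and its host gene *H13*. They were taken by symbol from a table of 24409 genes, which held 1 row for each of the 6. Of the 26 samples in the series, 3 wild-type (WT) and 2 ZFP57 KO ES cell libraries were of RNA. Chromatin captured with an antibody to ZFP57 was sequenced in 3 WT and 2 KO libraries. All of these libraries came from male ES cells, pluripotent cells of the early embryo, on the C57BL/6J strain, from lines derived at embryonic day 2.5 and kept to at most 15 passages, grown without serum under inhibitors of 2 kinases with LIF. The KO was zygotic: coding exons of *Zfp57* were deleted in the embryo from which a line was made, while a store made in the oocyte could have been inherited, so it is not a model without any ZFP57 from fertilization onwards. The replicates are numbered ES cell samples, and the p-values measure the spread between these libraries.

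Imprinted genes are expressed mainly from 1 parental copy. They are regulated by DNA methylation that differs by parental origin and is laid down in the germ line at an imprinting control region. ZFP57 is a KRAB zinc finger protein that binds the methylated hexanucleotide TGCCGC and recruits the corepressor KAP1, which keeps such regions methylated after fertilization. *Gnas* codes for the stimulatory G protein alpha subunit Gs, which couples hormone receptors to cAMP synthesis, and for other products from alternative first exons, and *Nespas* is a paternally expressed noncoding RNA made from the opposite strand. *Nnat* codes for neuronatin, a small membrane protein of the developing brain, and lies in an intron of *Blcap*. *Mcts2* is a retrogene copy of *Mcts1* inside an intron of *H13*, the gene of signal peptide peptidase.

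The list of ZFP57 peaks placed 1 peak in each of the first 2 domains and none near *Mcts2* and *H13*. The *Gnas* domain peak, chr2:174295702-174296317 on the mm10 build, was 616 bp wide, started 266 bp upstream of the transcript start of *Nespas* and lay inside the span of *Gnas*. The *Nnat* peak, chr2:157559653-157560594, was 942 bp wide and covered the transcript start of *Nnat*, with 425 bp upstream of it and 516 bp downstream, inside an intron of *Blcap*. Parts of both peaks are shown because they carry copies of the hexanucleotide, and a stretch before *Mcts2* because it carries copies without a listed peak. Each is the plus strand of mm10, with TGCCGC and its complement GCGGCA in capitals.
Left part of the Gnas domain peak, chr2:174295702-174295995: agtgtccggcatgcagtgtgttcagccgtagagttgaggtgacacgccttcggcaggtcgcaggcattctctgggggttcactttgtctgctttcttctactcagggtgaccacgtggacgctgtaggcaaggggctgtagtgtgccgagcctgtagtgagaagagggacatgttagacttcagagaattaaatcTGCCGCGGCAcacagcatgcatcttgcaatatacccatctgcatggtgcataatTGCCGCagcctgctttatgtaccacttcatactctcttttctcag
Left part of the Nnat peak, chr2:157559653-157559952: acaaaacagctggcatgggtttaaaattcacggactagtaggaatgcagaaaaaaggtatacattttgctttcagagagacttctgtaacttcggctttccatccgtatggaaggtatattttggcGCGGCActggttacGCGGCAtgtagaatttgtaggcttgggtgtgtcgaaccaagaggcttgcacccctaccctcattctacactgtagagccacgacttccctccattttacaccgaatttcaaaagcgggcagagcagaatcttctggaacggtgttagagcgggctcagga
First intron of Nnat, within the peak, chr2:157560261-157560447: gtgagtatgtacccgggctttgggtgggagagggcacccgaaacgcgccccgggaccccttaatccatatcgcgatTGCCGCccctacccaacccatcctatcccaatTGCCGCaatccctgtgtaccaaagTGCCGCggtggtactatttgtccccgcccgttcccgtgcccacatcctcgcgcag
Before the transcript start of Mcts2 in GENCODE, no peak, chr2:152686735-152687034: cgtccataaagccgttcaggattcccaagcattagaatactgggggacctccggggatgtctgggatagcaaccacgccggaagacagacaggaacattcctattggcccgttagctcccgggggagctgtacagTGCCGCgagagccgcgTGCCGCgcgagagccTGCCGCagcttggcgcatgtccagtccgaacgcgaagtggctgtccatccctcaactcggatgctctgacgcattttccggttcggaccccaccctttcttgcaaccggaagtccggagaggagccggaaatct

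The 942 bp *Nnat* peak held 6 copies of the hexanucleotide, counted on both strands with overlapping copies included. The 616 bp *Gnas* domain peak held 5, and in its left part 2 copies on opposite strands share their last and first bases in a run of 10 bases, TGCCGCGGCA. Over all 1423 ZFP57 peaks the median was 1 copy, and 1309 peaks (92.0%) held at least 1. The *Nnat* peak had more copies than 98.9% of the peaks and the *Gnas* domain peak more than 98.5%. Both peaks were also wide, wider than 97.3% and 90.8% of the list, against a median of 291 bp. Per kb, the density was 6.37 copies in the *Nnat* peak and 8.12 in the *Gnas* domain peak, with a median of 3.8.

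In base composition too both peaks lay above the middle of the list. The *Nnat* peak had 68 CpG dinucleotides, a GC content of 58.0% and an observed to expected CpG ratio of 0.861, against list medians of 11, 49.8% and 0.582. The *Gnas* domain peak had 32 CpG, a GC content of 53.7% and a ratio of 0.722. Repeat sequence, marked by soft-masking in the genome file, made up 2.87% of the *Nnat* peak and 7.79% of the *Gnas* domain peak, whereas the median peak was masked over 72.0% of its length.

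Each of the 2 peaks stood alone. The nearest other peak was 796.7 kb from the *Nnat* peak and 3257 kb from the *Gnas* domain peak. Both intervals were also in the shorter list of 743 peaks named for hybrid C57BL/6J X 129aa cells, all of which are intervals of the first list. For *H13* the nearest peak of the longer list was 2404 kb away and the nearest of the hybrid list 2471 kb. For *Mcts2* these distances were 2424 kb and 2489 kb. With windows of 5, 20 or 50 kb around the gene spans, with the hybrid list or with distances taken to the gene start, 4 of the 6 genes had a peak. The lists hold positions only, so the strength of binding was not measured here, and a region without a listed peak may still be bound more weakly.

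The position of the *Gnas* domain peak differs for the alternative first exons of *Gnas*. RefSeq places these exons at 5 starts. The peak lies between the first of them, 11.38 kb away, and the second, 1542 bp downstream of the peak end, which begins the transcript of the large isoform XLas. The other 3 starts were 31.4, 31.5 and 33.7 kb beyond the peak. For *Blcap*, whose transcript runs in the opposite direction to *Nnat*, the peak was 5.767 kb inside the gene, counted from its start.

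**Figure D1:**
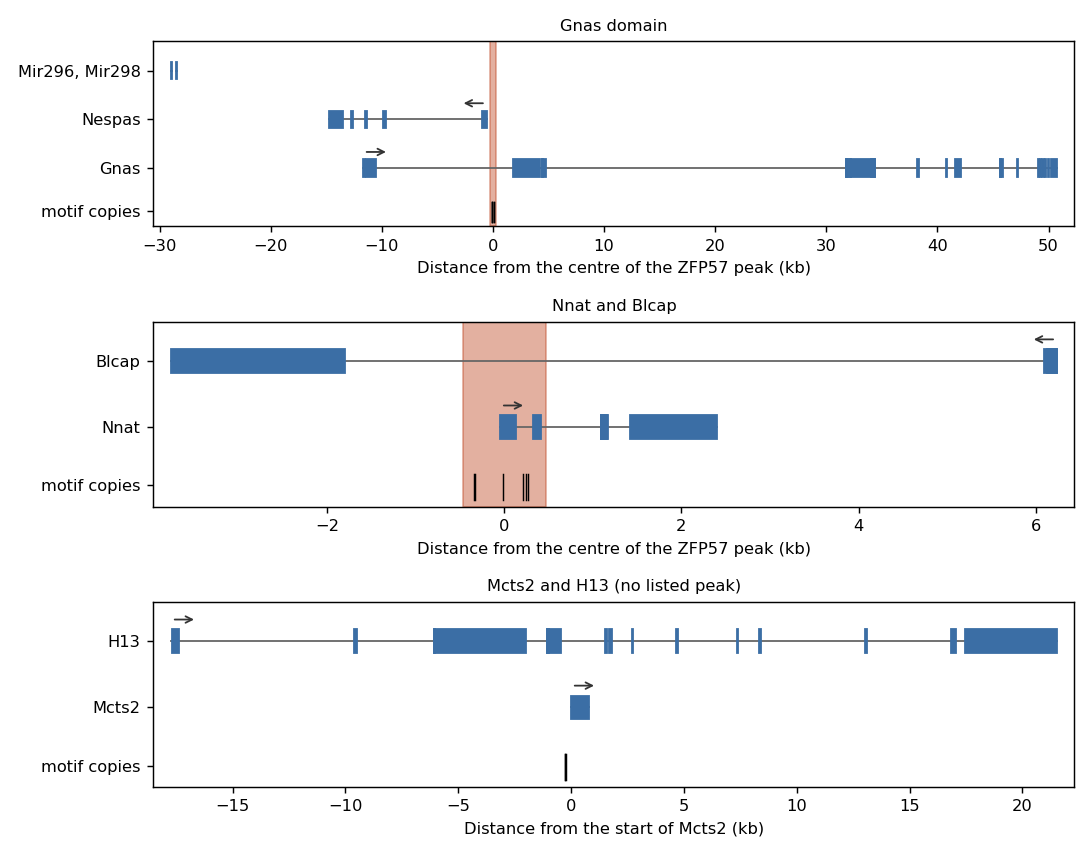
Maps of the 3 domains to scale, with exons as blue blocks, transcript spans as grey lines, arrows for the direction of transcription, ZFP57 peaks as shaded bands and copies of the hexanucleotide as black ticks. The *Gnas* peak, with 5 copies, sits 266 bp from the start of *Nespas*, the *Nnat* peak, with 6, covers the start of *Nnat*, and 3 copies precede *Mcts2* without a peak.

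Copies of the hexanucleotide were also counted around the starts of these genes. Within 1 kb on either side of the transcript start, *Nnat* had 6 copies, a number that 0.236% of 49541 RefSeq starts reached. *Nespas* had 5 (0.579% of starts), all 5 being those of the peak. *Mcts2* had 3 (3.81%), *Gnas* at its most upstream start had 2 (10.2%), and *Blcap* and *H13* had 1 each (30.1%). The 3 copies before *Mcts2* started within 31 bp of each other, from 278 bp before its RefSeq start, and the 3 in the first intron of *Nnat* started within 56 bp. In the narrower RefSeq promoter windows, from 250 bp before to 50 bp after a start, 11.6% of 32817 windows held the motif. *Mcts2* and *Nnat* had 1 copy each there, *Gnas*, *Blcap* and *H13* none, and *Nespas* was not matched. The windows of *Gnas* did not include the start of XLas, the one next to the peak. A copy of the motif is a match of letters and does not by itself show binding.

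Expression was measured in FPKM, a fragment number divided by exon length and library size. The exon lengths used are not given, and in RefSeq they run from 799 bp for *Mcts2* to 9937 bp for *H13*. Levels of different genes, and their order below, therefore compare only roughly. In the WT libraries *Nespas* had the highest mean level of the 6, 13.76 ± 0.958 FPKM (SD, n = 3), followed by *Mcts2* with 11.79 ± 0.408, *Blcap* with 6.67 ± 0.151 and *Gnas* with 4.497 ± 0.139. The lowest were *Nnat* with 2.133 ± 0.393 and *H13* with 1.857 ± 0.0961, whose WT values overlapped, so that their order is not resolved. The other neighbours in this order did not overlap. Among the 14612 tested genes, those with a mean of at least 0.1 FPKM over the 5 libraries, the mean of *Nespas* exceeded that of 82.6% and that of *Mcts2* 75.8%. For *Blcap* the share was 64.1%, for *Gnas* 52.2%, for *Nnat* 38.3% and for *H13* 37.1%.

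**Figure D2:**
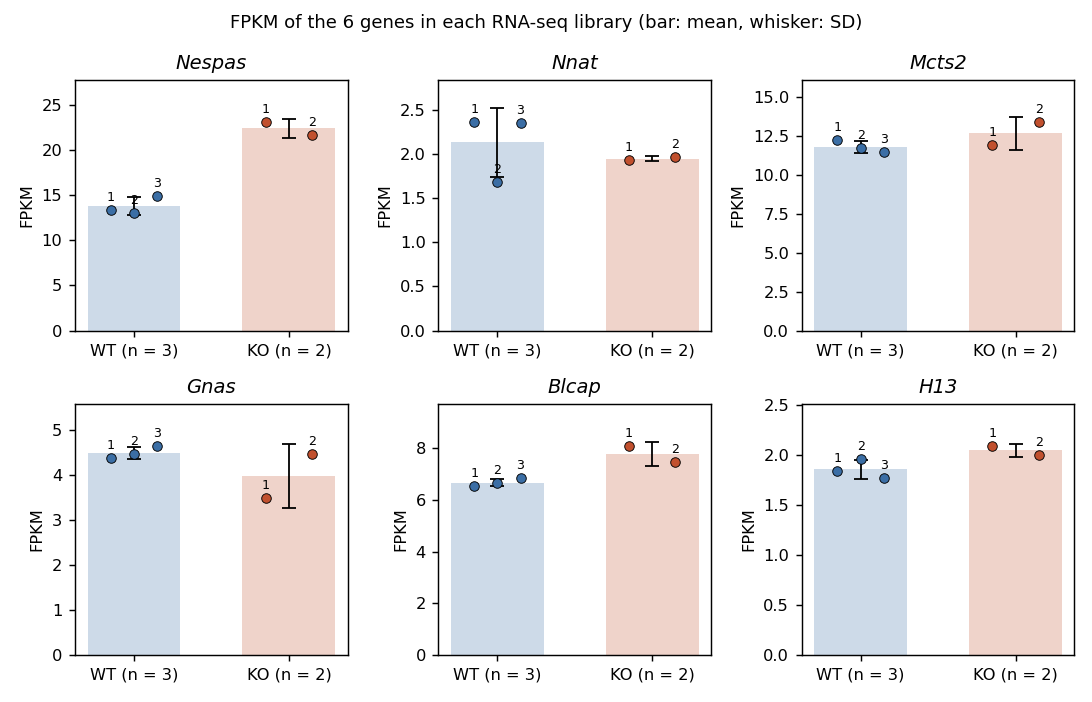
FPKM of the 6 genes in each RNA-seq library, with points numbered by replicate, bars at the group mean from 0 and whiskers for the SD (WT n = 3, KO n = 2). The KO libraries of *Nespas* (21.64 and 23.12) lie well above all WT libraries (13.05 to 14.85), those of *Blcap* and *H13* lie just above, and those of *Gnas*, *Nnat* and *Mcts2* overlap with WT.

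The comparison of KO with WT asks whether the domains change in expression where ZFP57 is lost. Of the 6 genes, 2 (33.3%) were called by limma at an adjusted p under 0.05, *Nespas* and *Blcap*, both higher in the KO. Over all tested genes 41.1% were called, 18.8% higher and 22.3% lower, and over the 1151 tested genes of chromosome 2 35.5% were called, 16.7% higher and 18.9% lower, so the share of the 6 was no larger than the background. For 3 of the 6, *Nespas*, *Blcap* and *H13*, the KO values did not overlap the WT values, against 63.4% of all tested genes. The median difference of the 6 was 0.12 on the log2 scale, against -0.013 for all tested genes and -0.002 for chromosome 2. Differences are of log2(FPKM + 0.1), KO minus WT, which understates changes of genes with low values. The two-sided exact permutation test used here, whose p is 2 times the one-sided p, cannot go below p = 0.2 for 3 against 2 libraries.

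*Nespas* (RefSeq *Gnasas1*, gene 56802, chr2:174281237-174295436, minus strand) showed the largest difference of the 6. Its level was 13.38, 13.05 and 14.85 FPKM in the WT libraries 1 to 3, and 23.12 and 21.64 FPKM in the KO libraries 1 and 2. Both KO libraries were higher than every WT library, and the gap between the groups was wider than the spread within either. The mean rose to 22.38 ± 1.05 FPKM (SD, n = 2), which is 1.62-fold, or 0.70 on the log2 scale (SE 0.068, 95% interval 0.53 to 0.86, limma adjusted p = 0.00087). By size in either direction, 83.1% of the tested genes had a smaller difference. In bulk RNA, more RNA of *Nespas* per cell and more cells that express it cannot be told apart. The call held in all 13 other settings of the fit, single libraries left out included, with log2 differences from 0.65 to 0.76.

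*Gnas* (gene 14683, chr2:174284320-174346744, plus strand) did not pass the test. The WT libraries had 4.38, 4.46 and 4.65 FPKM and the KO libraries 3.48 and 4.48. KO 1 was below all WT libraries, whereas KO 2 lay within their range. The difference was -0.18 on the log2 scale (SE 0.112, 95% interval -0.45 to 0.09, limma adjusted p = 0.24), an interval that includes a moderate fall as well as no change. The value depended on the KO libraries: without KO 2 it was -0.36 (limma adjusted p = 0.032), and without KO 1 it was -0.005 (adjusted p = 0.97). Such fits leave 1 KO library, which is assumed to vary like the WT libraries. The table has 1 row for the gene, which has 12 transcripts in the curated RefSeq set, so changes in single first exons, such as that of XLas next to the peak, were not measured.

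The ratio of *Nespas* to *Gnas* within each library sets the 2 strands of the domain side by side. It was 3.05, 2.93 and 3.19 in the WT libraries and 6.64 and 4.83 in the KO libraries, without overlap. The log2 difference of the ratio was 0.89, and the exact two-sided permutation p was 0.2, the smallest that this form of the test allows. The exons of the 2 genes overlap by 111 bp, which is 4.94% of the exon length of *Nespas*, and their spans by 11117 bp. How strand was used in counting is not stated, and without strand the reads of the overlap cannot be assigned to either gene.

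Downstream of *Nespas*, on the same strand, lie the genes of the microRNAs miR-296 and miR-298, which belong to the same imprinted domain. Their mature sequences from RefSeq are shown with the seed, bases 2 to 8, in capitals, because *Mir298* was among the called neighbours and the 4 seeds all differ.
miR-298-5p: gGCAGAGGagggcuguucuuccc
miR-298-3p: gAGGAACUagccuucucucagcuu
miR-296-5p: aGGGCCCCcccucaauccugu
miR-296-3p: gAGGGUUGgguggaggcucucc
The *Mir298* hairpin (chr2:174267504-174267585) begins 13.7 kb beyond the 3' end of *Nespas* and had 1.33, 2.69 and 2.64 FPKM in WT and 4.19 and 4.20 in KO. Both KO values were above all WT values, with a log2 difference of 0.95 (SE 0.294, limma adjusted p = 0.043). The *Mir296* hairpin (chr2:174267047-174267125) had 1.15, 1.93 and 2.74 FPKM in WT and 2.66 and 2.75 in KO, which overlap, and its difference of 0.54 did not pass (SE 0.319, limma adjusted p = 0.22). These values rest on few fragments, about 6 to 19 for the 82 bp of *Mir298* and 5 to 12 for the 79 bp of *Mir296*, and are reads of the precursor region in libraries of long RNA, not of the mature microRNAs.

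*Nnat* (gene 18111, chr2:157560078-157562525, plus strand), whose start is covered by the peak, showed no difference beyond its spread. The WT libraries had 2.37, 1.68 and 2.35 FPKM and the KO libraries 1.93 and 1.97. Both KO values fell between the lowest and the highest WT value. The log2 difference was -0.11 (SE 0.163, 95% interval -0.50 to 0.29, limma adjusted p = 0.63), so that changes smaller than this interval could not be seen. *Nnat* rested on the fewest fragments of the 6 genes, an estimated 132 to 175 per library.

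*Blcap* (gene 53619, chr2:157556362-157566361, minus strand), named for its reduced expression in bladder cancer, was slightly higher in the KO. Its level was 6.53, 6.65 and 6.83 FPKM in WT and 8.09 and 7.45 FPKM in KO. The groups did not overlap, but KO 2 was about as close to the highest WT library as to KO 1. The mean was 1.16-fold higher, or 0.22 on the log2 scale (SE 0.059, 95% interval 0.07 to 0.36, limma adjusted p = 0.03). The call was not stable, since it was lost without any 1 of WT 1, WT 2, WT 3 and KO 1, with adjusted p of 0.083, 0.08, 0.062 and 0.12, the last from a fit in which the single KO library is assumed to vary like the WT libraries. *Nnat* lies wholly within *Blcap* on the other strand, but the exons of the 2 genes do not overlap. The ratio of *Nnat* to *Blcap* was 0.363, 0.253 and 0.344 in WT and 0.239 and 0.264 in KO, which overlap (exact two-sided permutation p = 0.4).

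*Mcts2* (gene 66405, chr2:152687148-152687946, plus strand), a translation factor gene without introns, did not pass the test. It had 12.24, 11.7 and 11.44 FPKM in WT and 11.9 and 13.42 FPKM in KO. KO 1 lay among the WT libraries and KO 2 above them. The log2 difference was 0.10 (SE 0.065, 95% interval -0.06 to 0.26, limma adjusted p = 0.27). Reads of *Mcts2* can in principle be separated from those of its parent gene *Mcts1*, since the transcripts are 83.9% identical over 678 aligned bases and share none of 883 stretches of 30 bases.

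*H13* (gene 14950, chr2:152669422-152708668, plus strand) had 1.84, 1.96 and 1.77 FPKM in WT and 2.09 and 2.00 FPKM in KO. The KO values were above the WT values by a small margin, less than the range of the WT libraries. The log2 difference was 0.13 (SE 0.094, 95% interval -0.10 to 0.36, limma adjusted p = 0.3). *Mcts2* and *H13* are transcribed from the same strand and share no exon base. Their ratio was 6.65, 5.97 and 6.46 in WT and 5.69 and 6.71 in KO, which overlap (exact two-sided permutation p = 0.8).

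**Figure D3:**
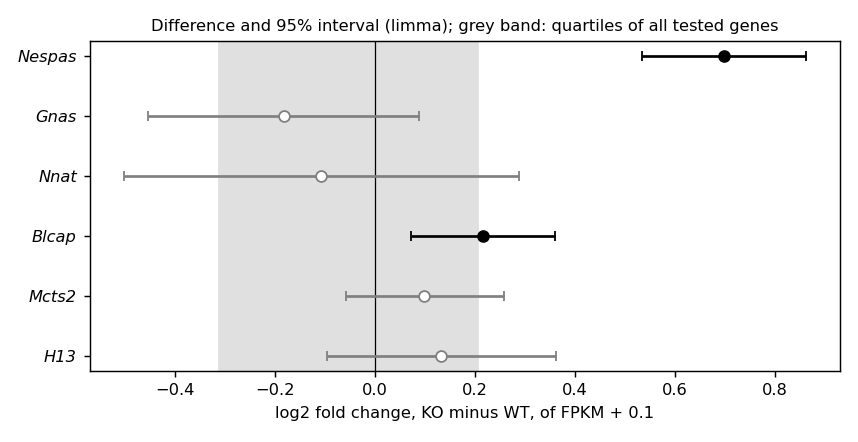
Log2 difference of KO minus WT for each gene, with the 95% interval from limma as bars, filled points for an adjusted p under 0.05 and a grey band from the lower to the upper quartile of all tested genes (-0.31 to 0.21). *Nespas*, at 0.70, is the gene whose interval lies wholly outside the band, and *Blcap* lies near its upper edge.

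The genes around the 6 were read by position. Within 500 kb of a span lay 61 other genes, of which 32 were tested and 13 (40.6%) called, a share close to the 41.1% of all genes. Of these 13, 11 were higher in the KO and 2 lower, and the median difference of the 32 was 0.20. Within 200 kb, 8 of 15 tested neighbours were called, all higher, against 18.8% of all tested genes and 16.7% of those on chromosome 2 called higher. By domain, 3 of 9 were called around *Gnas*, 5 of 9 around *Nnat* and *Blcap*, and 5 of 14 around *Mcts2* and *H13*, where no peak was listed. *Nespas* and *Blcap* were thus not the only genes of their neighbourhoods to be higher.

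Around *Gnas*, *Npepl1*, an aminopeptidase-like gene 161618 bp from its span, had 1.49, 1.31 and 1.53 FPKM in WT and 2.18 and 2.61 in KO. Its log2 difference of 0.69 (SE 0.124, limma adjusted p = 0.0068) was close to that of *Nespas*. Around *Nnat* and *Blcap*, *Samhd1*, a dNTP hydrolase gene, was lower, with 9.64, 9.52 and 10.35 FPKM in WT and 8.22 and 7.43 in KO (log2 difference -0.33, SE 0.067, limma adjusted p = 0.011). The tyrosine kinase gene *Src*, *Manbal*, *Ctnnbl1* and *Rprd1b* were higher, with log2 differences of 0.36, 0.50, 0.23 and 0.32. In size, *Blcap* was at the lower end of this group. Around *Mcts2* and *H13*, *Trib3*, a stress-induced pseudokinase gene, had 4.27, 4.20 and 4.60 FPKM in WT and 6.67 and 8.29 in KO (log2 difference 0.76, SE 0.103, limma adjusted p = 0.0025). *Id1*, a target gene of BMP signalling, was also called, at low levels, from 0.31 to 0.47 FPKM in WT and 0.90 and 1.40 FPKM in KO. *Nrsn2*, also low, had the largest difference of all neighbours, in the other direction, from 0.32, 0.21 and 0.20 FPKM in WT to 0.01 and 0.03 in KO (log2 difference -1.51, SE 0.246, limma adjusted p = 0.0049).

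**Figure D4:**
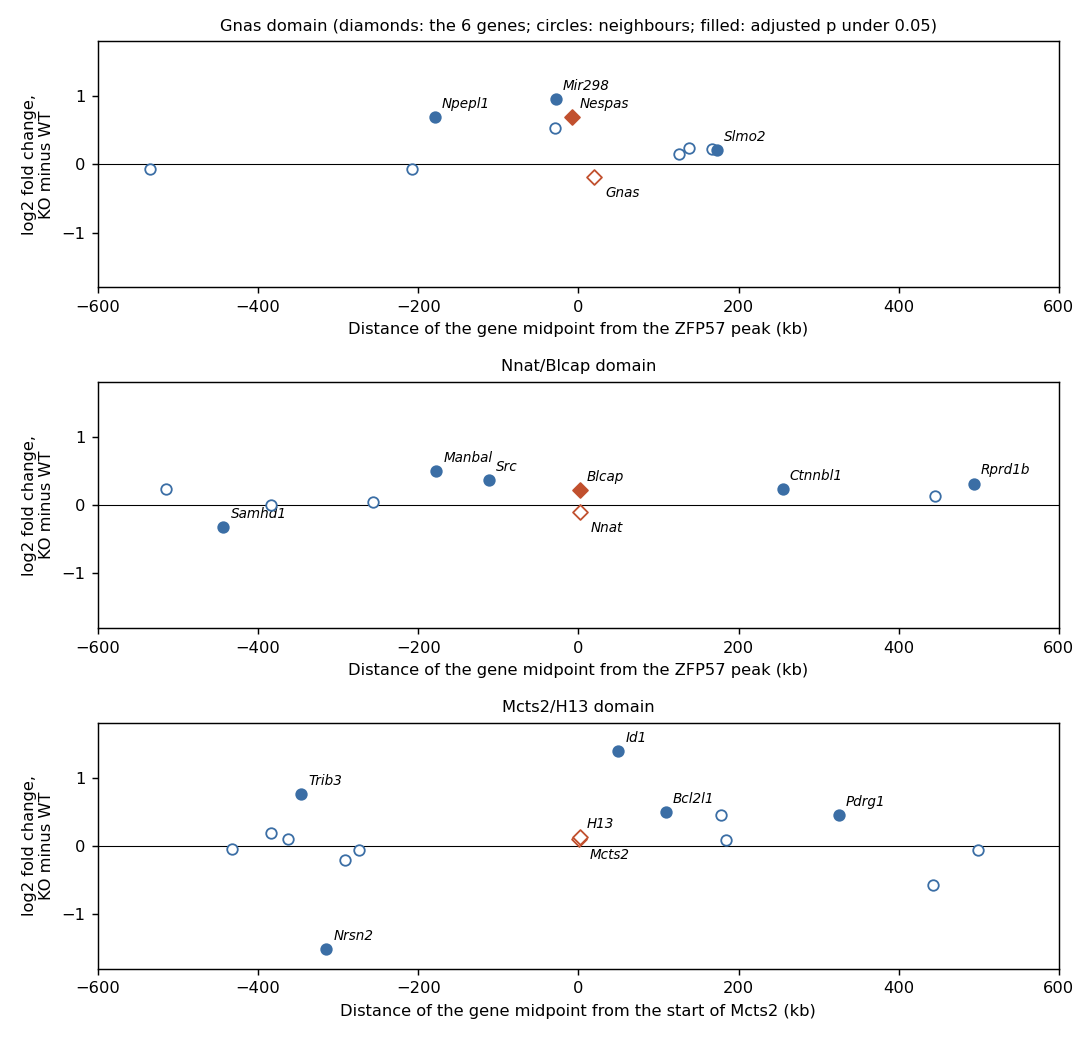
Log2 difference of KO minus WT for the 6 genes (diamonds) and the tested genes within 500 kb of them (circles), by distance of the gene midpoint from the peak, or from the start of *Mcts2* where there is none. Filled symbols passed an adjusted p of 0.05, and 11 of the 13 filled circles are above 0.

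Genes of the Gs and cAMP pathway give the setting in which the main product of *Gnas* acts. The list of 61 genes besides *Gnas* holds G protein subunits (*Gnal* among them) and their chaperone *Ric8b*, adenylyl cyclases, subunits, anchors and inhibitors of protein kinase A, the cAMP sensors *Rapgef3* and *Rapgef4*, phosphodiesterases, cAMP-dependent transcription factors, receptor kinases and arrestins. Of these, 50 were tested and 22 (44.0%) called, 9 higher and 13 lower, with differences from -1.77 to 0.90 and a median of -0.052. The list thus did not move in 1 direction, and its share of calls was near the background. On chromosome 11, whose 1224 tested genes had a median difference of -0.47, lay 5 of the 50, 4 of them called and lower. Over the other 45, 9 were higher and 9 lower.

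Upstream of cAMP, the gamma subunit gene *Gng12* rose from 3.35, 3.09 and 3.17 FPKM in WT to 4.49 and 5.90 in KO (log2 difference 0.67, limma adjusted p = 0.0071). Other beta and gamma genes were lower, namely *Gnb4*, *Gnb5*, *Gng2* and *Gng10* with log2 differences of -1.07, -0.68, -0.61 and -0.70, and *Gnb2* was higher by 0.15, all called. The adenylyl cyclase gene *Adcy3* fell from 2.16, 1.90 and 2.35 FPKM to 1.23 and 1.29 (log2 difference -0.71, limma adjusted p = 0.0052). Among genes that act on the product, the phosphodiesterase gene *Pde4d* rose from 1.6, 1.58 and 1.5 FPKM to 2.45 and 2.57 (log2 difference 0.65, limma adjusted p = 0.0028). *Pde4a*, of the same enzyme family, had the largest difference of the list and went the other way, from 1.38, 1.38 and 1.44 FPKM to 0.44 and 0.26 (log2 difference -1.77, limma adjusted p = 0.0013). Of the protein kinase A regulators, the anchor gene *Akap7* rose by 0.79 (limma adjusted p = 0.0025) and the inhibitor gene *Pkig* fell by 0.97 on the log2 scale (limma adjusted p = 0.0038). The anchor genes *Akap1* and *Akap10*, on chromosome 11, were called lower, with log2 differences of -0.40 and -0.68. Among the regulatory subunit genes, *Prkar2a* was called higher (0.27), and *Prkar1a* and *Prkar2b* lower (-0.30 and -0.86). *Arrb2*, on chromosome 11, coding for an arrestin that ends receptor signalling, fell from 9.04, 8.76 and 8.90 FPKM to 4.68 and 3.84 (log2 difference -1.05, limma adjusted p = 0.00062).

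**Figure D5:**
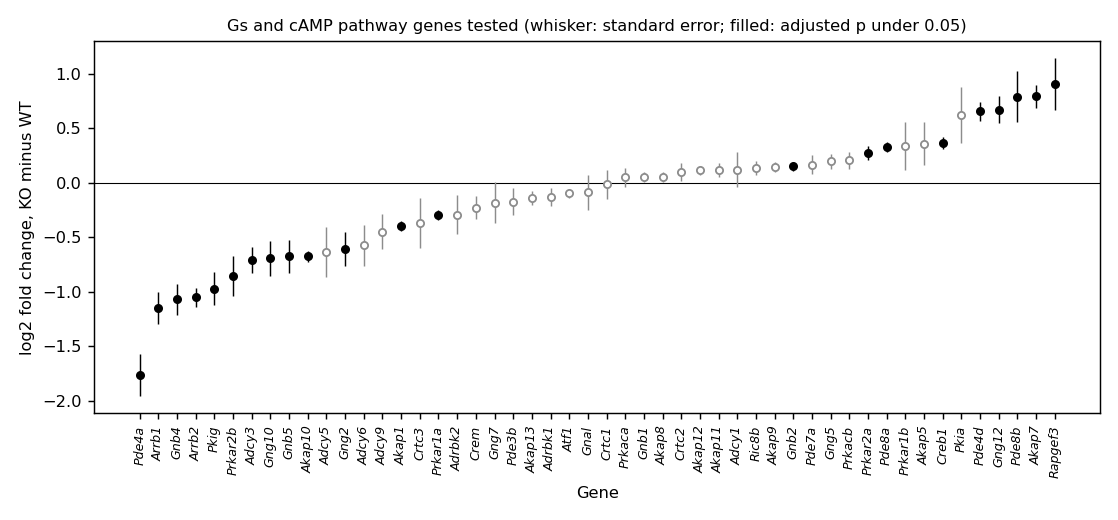
Log2 difference of KO minus WT for the 50 tested genes of the Gs and cAMP pathway list, in order of size, with the standard error from limma as whiskers and filled points for an adjusted p under 0.05. The 22 filled points are 9 above and 13 below 0.

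Relatives of the 6 genes were read in the same fit, in which 41.1% of all tested genes were called. Of 15 other G protein alpha genes, 11 were tested and 2 called, *Gnai2* (0.19, limma adjusted p = 0.0094) and *Gnai1* (-0.50, limma adjusted p = 0.015), both of the inhibitory class. *Gnal*, the closest relative of *Gnas*, was low, at 0.35 to 0.42 FPKM in all 5 libraries, with a log2 difference of -0.09 (limma adjusted p = 0.69). Of 3 tested relatives of *H13*, *Sppl3* was called (0.16, limma adjusted p = 0.029). *Mcts1*, the parent gene of *Mcts2*, was higher, with 6.18, 6.47 and 6.08 FPKM in WT and 8.20 and 8.52 in KO (log2 difference 0.42, SE 0.056, limma adjusted p = 0.0024). *Mcts2* thus had a higher FPKM than its parent in both groups. *Denr*, the partner of the MCTS proteins in translation, and the related *Eif2d* did not pass the test (limma adjusted p = 0.061 and 0.53). Neuronatin is thought to act on the calcium pumps of the endoplasmic reticulum, and of 5 genes of these pumps and their small regulators 2 were tested. *Atp2a3* rose from 0.90, 0.48 and 0.52 FPKM to 1.46 and 2.33 (log2 difference 1.45, limma adjusted p = 0.011), and *Atp2a2*, at 57.99 to 64.33 FPKM, did not pass (adjusted p = 0.14).

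Other imprinted genes that lie within a host gene, as *Nnat* and *Mcts2* do, had a ZFP57 peak of both lists over or inside them. *Nap1l5* in *Herc3* had 0.20, 0.11 and 0.10 FPKM in WT and 0.21 and 0.51 in KO, and did not pass (log2 difference 0.90, limma adjusted p = 0.085). *Peg13* in *Trappc9* did not pass either, with 0.81, 0.86 and 0.79 FPKM in WT and 1.14 and 0.99 in KO (0.34, limma adjusted p = 0.08). *Zrsr1* in *Commd1*, both on chromosome 11, was lower together with its host (-0.32, limma adjusted p = 0.015, and -0.47, adjusted p = 0.0025). *Inpp5f*, whose imprinted short form starts inside the gene, with a peak 76.78 kb from the gene start, was lower at low levels, from 0.33 to 0.49 FPKM in WT and 0.11 and 0.15 FPKM in KO (-1.19, limma adjusted p = 0.0073). The hosts *Herc3* and *Trappc9* had differences of 0.09 and -0.02 and did not pass (limma adjusted p = 0.49 and 0.89).

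The genes whose levels over the 5 libraries were most like those of *Nespas*, by Euclidean distance of mean-centred log2(FPKM + 0.1), were *Ndrg3* (0.0622), *Zbtb12* (0.0673) and *Fam49a* (0.0837). *Ndrg3*, also on chromosome 2, had 4.34, 4.14 and 4.79 FPKM in WT and 7.59 and 7.33 in KO. Like *Nespas*, all 3 were higher in WT 3 than in the other WT libraries and higher in KO 1 than in KO 2. This shared pattern follows from their choice by these same values among all tested genes.

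The libraries were checked against their labels. *Zfp57* itself had 75.94, 72.34 and 70.55 FPKM in WT and 19.0 and 21.62 in KO (log2 difference -1.84, limma adjusted p = 0.00023), and the value does not separate the deleted exons from the rest. The summed level of 10 ES cell markers was 740.8 to 752.4 FPKM in WT and 801.3 to 864.7 FPKM in KO, with 5 of them called higher and 2 lower, against 41.1% called over all genes. *Tfcp2l1*, *Klf4* and *Tbx3* were 1.52, 1.67 and 1.49-fold higher, *Klf2* was at 0.822 of its WT level, and *Dppa3* had 24.21, 35.55 and 36.97 FPKM in WT and 9.04 and 4.43 in KO. Of 7 neural markers the sum was 15.46 to 18.18 FPKM in WT and 11.9 to 16.78 FPKM in KO, with *Sox1* higher and *Nes* lower. Sums over 8 trophoblast markers were 17.39 to 19.2 and 16.72 to 17.9 FPKM, and *Elf5* and *Hand1* under 0.1 FPKM on average. Most of these sums was *Tfap2c*, which was lower, at 15.12 to 17.12 FPKM in WT and 11.09 and 13.21 in KO, while *Eomes* (0.38 to 0.60 and 2.13 and 2.40 FPKM) and *Krt8* (0.56 to 0.66 and 1.73 and 2.13 FPKM) were higher. Those over 6 primitive endoderm markers were 0.64 to 0.7 and 0.9 to 1.36 FPKM, with *Gata6*, *Sox17* and *Foxa2* under 0.1. The higher sum came from *Sox7*, called, with 0.09 to 0.15 FPKM in WT and 0.90 and 0.48 in KO, while *Gata4* had a difference of -0.48 and did not pass (limma adjusted p = 0.16). Sums over 6 fibroblast markers were 0.48 to 0.54 and 0.48 to 0.57 FPKM, with none called and *Col3a1* at 0. Their part in the differences of the 6 genes was not tested.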

How the data were processed

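ZFP57 ChIP-seq and RNA-seq of C57BL/6J ES cells were used, and the KAP1, H3K9me3 and hybrid-cell libraries were not analysed here. The authors deposited gene expression as FPKM with 2 decimals, and ZFP57 peaks as mm10 positions without scores, each found in 2 or more of the 3 WT replicates. For the hybrid list no method is given. Per the labels, FastQC 0.11.5, Trim Galore 0.2.7, BWA 0.6.2, Picard, MACS2 2.1.0 and STAR 2.5.2 were used, with no roles given. The counting, its annotation and its strand setting are not given in the sources used here. No read totals are given, but the FPKM of genes of 60 to 120 bp fell on steps, 90.57 to 94.36% of them whole within 0.1 of a fragment, which implied 50700000 to 58800000 fragments per library. Fragment numbers were estimated from these steps with RefSeq exon lengths, limit the precision by counting error only and entered no test.

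Genes were matched to RefSeq on GRCm38, 23165 by symbol and 1096 by synonym, with 16 of several matches and 132 of none. The test was limma 3.58.1 (eBayes with trend, genotype only, two-sided) in R 4.3.3 on log2(FPKM + 0.1), for the 14612 genes whose mean reached 0.1 FPKM, adjusted over all of them by Benjamini-Hochberg. The code was run on normal values simulated from its own fitted variances, which does not show how the test performs on these libraries. Ratios within libraries were compared by exact permutation in Python 3.11.15 with scipy 1.17.1, and numpy 2.4.6, pandas 2.3.3 and matplotlib 3.10.9 were also used. The alternatives were 2 pseudocounts, 2 filters, 2 scalings, the variance model, a replicate block, single libraries, a stricter threshold and other windows. The 6 genes and the gene lists were chosen with earlier results of these data known. Beyond the 6, the genes named are up to 3 called genes with the highest and up to 3 with the lowest difference in each list and among the neighbours, with a mean of at least 1 FPKM. *Mcts1*, *Gnal* and the host gene pairs are named whatever their values, and likeness was sought for the gene with the largest difference. *Mir296*, *Id1*, *Nrsn2*, *Pde4a*, *Gnb2*, *Gnb4*, *Gnb5*, *Gng2*, *Gng10*, *Akap1*, *Akap10*, *Prkar1a*, *Prkar2a*, *Prkar2b*, *Src*, *Manbal*, *Ctnnbl1*, *Rprd1b*, *Atp2a2*, *Denr*, *Eif2d* and the other markers were named after their values were seen. Of the marker lists, genes without a value in the text are given through the sums, and 1 further marker was left out and is not reported here.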

Additional observations from a re-analysis of the deposited data

How the results depend on the processing

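The higher level of *Nespas* passed the threshold in all 13 alternatives, no gene of the 6 changed direction in any, and *Gnas*, *Nnat*, *Mcts2* and *H13* stayed on their side of it apart from *Gnas* without KO 2. The count of called genes among the 6 was 2. It was 1 with the variance model without trend, 1 at an adjusted p under 0.01 and 1 to 3 with 1 library left out, *Blcap* being lost in the first (limma adjusted p = 0.054) and *Gnas* gained without KO 2, where the 1 KO library left is assumed to vary like the WT libraries. Over all genes, 6002 calls became 3291 at an adjusted p under 0.01. The 22 calls of the Gs and cAMP list became 14 there and 14 with a minimum mean of 1 FPKM. The 13 called neighbours became 8 with a window of 200 kb and 25 with 1000 kb. The causes were not tested beyond what fewer or more genes in a set bring about.

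Same-numbered WT and KO libraries did not deviate together (correlations of -0.15 and -0.15 over 10664 genes), WT 3 has no partner, and nothing in the labels pairs them. With the replicate number as a block, to which WT 3 adds nothing, 3012 genes, 1 of the 6 genes, 14 of the list and 8 neighbours were called, *Blcap* at 0.23 on the log2 scale with an adjusted p of 0.12 in limma.

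Of the 6 genes, *Nnat* rested on the fewest fragments, and the microRNA hairpins on fewer still.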
